A study of Rattus norvegicus with 8 samples.

Results

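The heat shock chaperones described here are genes of the Hsp70 and Hsp90 machines that fold proteins in the cytosol and in the endoplasmic reticulum (ER). With them is Hspb1, which encodes a small heat shock protein. All were chosen by gene symbol, from a list of 10 symbols, in tables of 3′ end sites from the rat hypothalamus. Of the 10 symbols, 7 were found among 18003 gene symbols, and these 7 had 24 of the 98356 sites. Hspa1a and Hspa1b, which encode the heat-inducible cytosolic Hsp70, and Hsp90aa1, which encodes the inducible cytosolic Hsp90, had no site under those symbols and are not described further. Transcripts were measured by whole transcriptome termini site sequencing (WTTS-Seq), in which each read marks the 3′ end of 1 polyadenylated RNA, so that a gene with alternative polyadenylation (APA) has several sites.

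The animals were adult male Long-Evans rats, and no transgene or deletion is part of the design. The libraries came from 4 rats exposed for 10 min to vaporized cannabis plant matter and from 4 controls that received air from a vaporizer without plant matter. The study gives more rats per group for this cohort than were sequenced, and how these were chosen is not stated. Rats of this cohort could feed at will until exposure, and their food was then taken away for the 1 hr before the hypothalamus was dissected. The labels number the controls 1, 2, 3 and 4 and the cannabis-exposed rats 1, 2, 3 and 5.

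Chaperones bind unfolded protein and release it in cycles of ATP use. Hsp70 takes clients from J-domain proteins and is reset by nucleotide exchange factors, Hsp90 receives some of these clients later, and small heat shock proteins hold unfolded protein without ATP. Heat, oxidants and other insults release heat shock factor 1, which binds repeated GAA units (heat shock elements) in promoters of cytosolic chaperones, whereas unfolded protein in the ER acts through ATF6 and the ER stress element. Neurons are known for a high basal level of constitutive Hsp70 and a weak inducible response.

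The promoter motifs are shown because they are the elements through which these stress responses are known to act. RefSeq promoters of assembly GRCr8 were searched over the 250 bases before the gene start, on both strands, and a promoter was held for all 7 members. The letters searched for heat shock elements of 2 units were GAANNTTC and TTCNNGAA, and the element of 3 units was GAANNTTC followed after 2 more bases by GAA, which contains both of the shorter ones. Either 2-unit element was present in 13.5% of 33469 promoters and in 4 members, Hspa8, Dnajb1, Hsph1 and Hspb1. The 3-unit element was present in 0.663% of promoters and in Hspa8 and Hsph1. The ER stress element, CCAAT and CCACG with 9 bases between them, was present in 0.0657% of promoters, which is 22 promoters, and in Hspa5 and Hsp90b1, while Hsp90ab1 held none of these letters in this window. A match of letters is a description and not a bound site. In the windows printed here the capitals mark the element, and each is written in the direction of its gene.
Hspa8, chr8:50080294-50080320, plus strand: cgagcgtGAAAGTTCCAGAAcgctgcg
Hspa8, chr8:50080452-50080478, plus strand, reverse orientation: ggaacccTTCTGGAAGGTTCtaagaca
Hsph1, chr12:10427325-10427351, plus strand, reverse orientation: ccgcagaTTCTGGAAAGTTCtcctcag
Dnajb1, chr19:41431142-41431162, minus strand: gggaggggcgGAAGGTTCtgg
Hspb1, chr12:26432413-26432440, minus strand: ttcaactagaGAAGTTTCcagatggggg
Hspa5, chr3:38452969-38452995, plus strand: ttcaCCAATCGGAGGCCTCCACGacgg
Hsp90b1, chr7:23012447-23012473, minus strand: aaacCCAATCGAAAGGAGCCACGcttc

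The libraries held from 1159811 to 3706778 reads on sites. Each deposited value is a normalized count, that is, reads scaled by a factor particular to the library, and 1 read stood for between 0.664 and 1.99 of them. The library of control 4 had the fewest reads, and control 4 and cannabis 1 stood apart from the other 6 on the first principal component of the gene totals, which held 38.8% of the variance. The hypothalamic neuron list had 11 of its 12 markers in the files (Npy was not found), with none at 0 in any library, and its summed level was from 3315 to 5665 normalized counts in controls and from 7433 to 9531 in cannabis-exposed rats. Its groups did not overlap, as in 1.98% of all gene totals. Of its genes 2, Avp and Oxt, passed P under 0.01, where 0.278% of all gene totals did. The sum is weighted to its highest genes and the other markers are not given singly, so it does not describe the list as a whole. The part of this difference in summed level in the chaperone values was not tested. Lists for astrocytes, oligodendrocytes, microglia, vessels, choroid plexus, pituitary, ependyma and neurons in general overlapped between the groups in their summed level. Of these lists' markers, Kl, Gh1 and Prl were not found, and Cldn5, Ttr and Folr1 were at 0 in some libraries.

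None of the 7 chaperones differed between cannabis-exposed rats and controls by more than the spread between rats, and the 2 groups overlapped in every one. The question of this comparison is whether 1 hr after a brief vapour exposure the hypothalamus carried more or less chaperone RNA. Differences on the log2 scale, of normalized count + 1 summed over the sites of a gene, ran from -0.30 for Hspa8 to 0.25 for Hspa5, with a median of -0.04 over the 7, beside a median of 0.05 over all 18003 gene totals. Of the members, 0 had P under 0.01 and 0 had P under 0.05 by limma, where 0.278% and 2.41% of all gene totals did, and 0 had adjusted P under 0.1, where 0.00555% did. At P under 0.05, edgeR and DESeq2 on the recovered reads each gave 0 members too, where 2.52% and 2.18% of all gene totals passed. The groups did not overlap in 1.98% of all gene totals. By limma 3 members had a value above 0 and 4 below, whereas by edgeR and by DESeq2 only 1 was above 0. In bulk tissue, fewer cells of a type and less RNA per cell cannot be told apart.

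**Figure D1:**
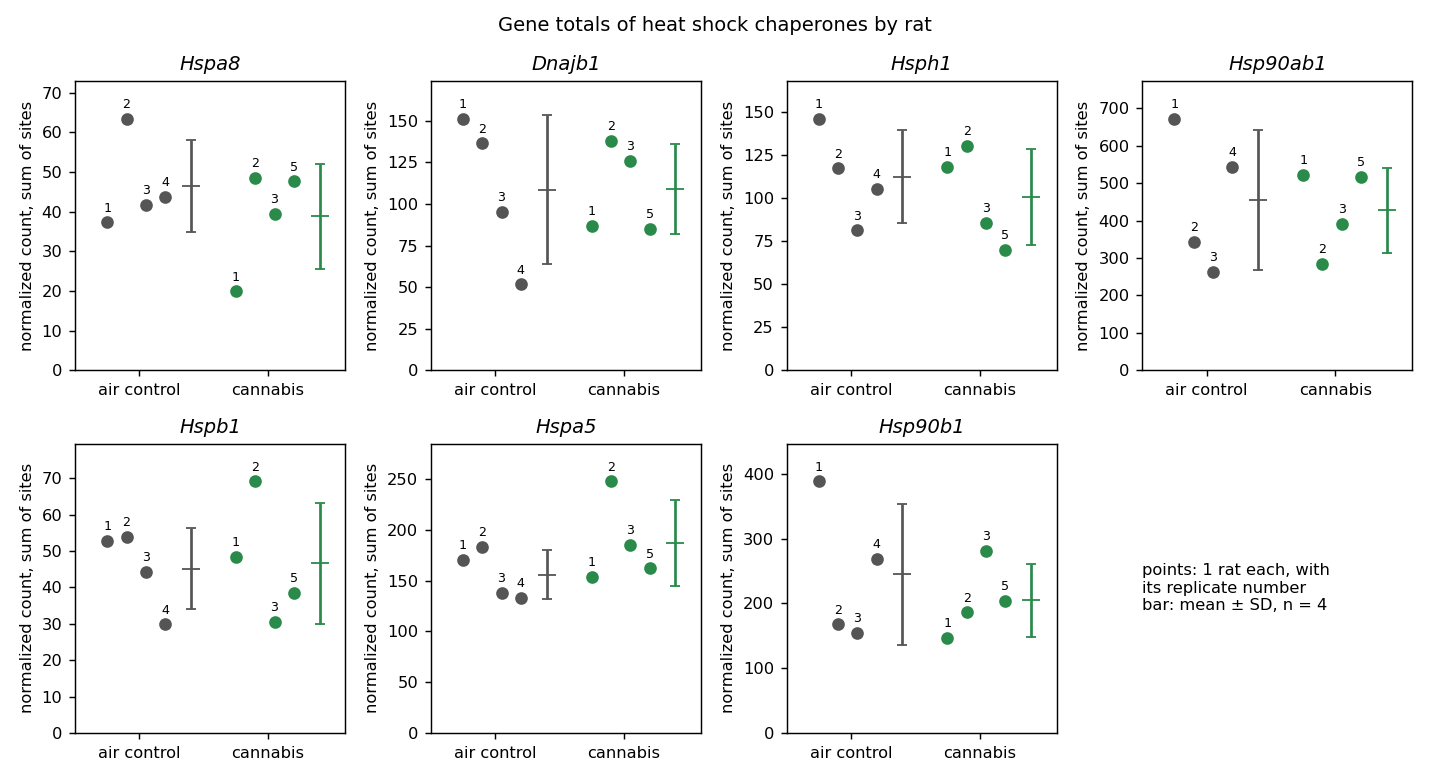
Normalized count of each chaperone, summed over its sites, in the 4 air-treated controls (grey) and the 4 cannabis-exposed rats (green), with 1 point per rat marked by its replicate number and a bar for the mean ± SD (n = 4). The points of the groups overlap in all 7 genes, and control 1 is highest for Hsp90ab1 and Hsp90b1 while cannabis 2 is highest for Hspa5 and Hspb1.

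The cytosolic Hsp70 machine comes first. Hspa8 encodes the constitutive cytosolic Hsp70, which also strips clathrin from synaptic vesicles. Its total was 37.3, 63.4, 41.6 and 43.7 normalized counts in controls 1 to 4, and 19.9, 48.5, 39.4 and 47.6 in cannabis rats 1, 2, 3 and 5. Control 2 was highest and cannabis 1 was lowest, and the remaining 6 rats lay close together. The group means were 46.5 ± 11.6 and 38.8 ± 13.3 normalized counts (SD, n = 4), a log2 difference of -0.30 with SE 0.33 and a 95% interval from -1.01 to 0.40 (limma P = 0.369, adjusted P = 0.999, exact permutation P = 0.514). Without cannabis 1 the difference was -0.02.

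The Hspa8 values rest on only 379 reads over all libraries and on an uncertain count. Hspa8 has processed copies in the rat genome, and 2 of them, Hsc70-ps1 and Hsc70-ps2, had symbols of their own in the files. Reads of near-identical copies can be divided between them by the mapping. Hsc70-ps1 had a mean of 29.5 normalized counts over the 8 libraries, and Hsc70-ps2 had a mean of 95.6, above that of Hspa8 itself at 42.7. The lowest library was cannabis 1 for each of the 3 symbols. With the 3 joined, the controls had a mean of 179 ± 25.6 normalized counts (SD, n = 4) against 157 ± 66.4 after cannabis. This join was chosen after seeing the data, and its log2 difference was -0.30 (95% interval -0.99 to 0.39, limma adjusted P = 0.999), the same size as for Hspa8 alone.

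Dnajb1 encodes a J-domain protein, a heat-inducible partner that loads clients onto Hsp70. Its total was 151, 136, 95.3 and 51.6 normalized counts in controls 1 to 4, and 86.9, 138, 126 and 85.3 in cannabis rats 1, 2, 3 and 5. The controls spanned the whole range, with control 1 highest and control 4 lowest, and all 4 cannabis-exposed rats fell inside it. The means were 109 ± 44.8 and 109 ± 27.01 normalized counts (SD, n = 4), and the log2 difference was 0.08 (SE 0.33, 95% interval -0.62 to 0.78, limma P = 0.80, exact permutation P = 1). Without control 4 it was -0.23.

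Hsph1 encodes Hsp110, the nucleotide exchange factor that resets Hsp70 and with it dissolves aggregates. Its total was 146, 117, 81.2 and 105 normalized counts in controls 1 to 4, and 118, 130.2, 85.6 and 69.9 in cannabis rats 1, 2, 3 and 5. High and low rats occurred in both groups. The log2 difference was -0.17 (SE 0.27, 95% interval -0.74 to 0.41, limma P = 0.541, exact permutation P = 0.629), and it was -0.0065 without cannabis 5 and -0.31 without control 3.

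Hspb1 encodes Hsp27, a small heat shock protein that holds unfolded protein and binds actin. Its single site had 52.6, 53.9, 44.3 and 29.8 normalized counts in controls 1 to 4, and 48.4, 69.1, 30.5 and 38.4 in cannabis rats 1, 2, 3 and 5. Cannabis 2 was highest and control 4 lowest, with cannabis 3 next to it. The log2 difference was 0.02 (SE 0.31, 95% interval -0.66 to 0.69, limma P = 0.958, exact permutation P = 0.857).

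The heat-inducible members spread widely over the rats of both groups. The mean of the centred log2 totals of Dnajb1, Hsph1 and Hspb1 was 0.46 in cannabis 2, 0.43 in control 1 and 0.28 in control 2. It was -0.51 in control 4 and -0.35 in cannabis 5, with the other 3 rats between -0.17 and 0.02. Both ends of this order thus held a rat of each group. Among 6045 gene symbols outside the chaperone lists with a mean of at least 50 normalized counts, those alike in pattern over the 8 libraries included Bdh1 (Pearson r = 0.98), Rab5c (r = 0.95), Sgk3 (r = 0.94) and Ash1l (r = 0.93). An r above 0.8 was found for 1.75% of the 6045, and these are descriptions over 8 points that share library and depth.

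Hsp90ab1 encodes the constitutive cytosolic Hsp90, which matures kinases and steroid receptors, and it had the highest level of the 7. Its total was 673, 342, 263 and 544 normalized counts in controls 1 to 4, and 522, 284, 391 and 516 in cannabis rats 1, 2, 3 and 5. The controls held both the highest and the lowest value. The means were 456 ± 187 and 428 ± 113 normalized counts (SD, n = 4), with a log2 difference of -0.04 (SE 0.30, 95% interval -0.68 to 0.61, limma P = 0.908, exact permutation P = 0.80). As a fold this interval ran from 0.624 to 1.53. The value was 0.18 without control 1, which is the sign opposite to that with all rats.

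In the ER, Hspa5 encodes BiP, the Hsp70 that binds nascent secretory protein and holds the stress sensors inactive. Its total was 170.3, 183, 138 and 133 normalized counts in controls 1 to 4, and 154, 248, 185 and 162 in cannabis rats 1, 2, 3 and 5. Cannabis 2 stood above all others, and the other 3 cannabis-exposed rats lay within or just above the range of the controls. The means were 156 ± 24.5 and 187 ± 42.5 normalized counts (SD, n = 4), and the log2 difference of 0.25 (SE 0.22, 95% interval -0.23 to 0.73) had the lowest P of the 7 (limma P = 0.282, adjusted P = 0.999, exact permutation P = 0.286). The smallest P that a two-sided exact test of 4 against 4 rats allows is 0.0286. Without cannabis 2 the log2 difference was 0.11.

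Hsp90b1 encodes Grp94, the Hsp90 of the ER, which folds receptors and integrins. Its total was 388, 168, 154 and 268 normalized counts in controls 1 to 4, and 147, 186, 281 and 204 in cannabis rats 1, 2, 3 and 5. Control 1 was high and the others overlapped. The log2 difference was -0.19 (SE 0.30, 95% interval -0.84 to 0.45, limma P = 0.530, exact permutation P = 0.629), and it was 0.06 without control 1. Hspa5 and Hsp90b1, the members whose promoters held the ER stress element, thus had values on opposite sides of 0, neither of which passed the test.

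**Figure D2:**
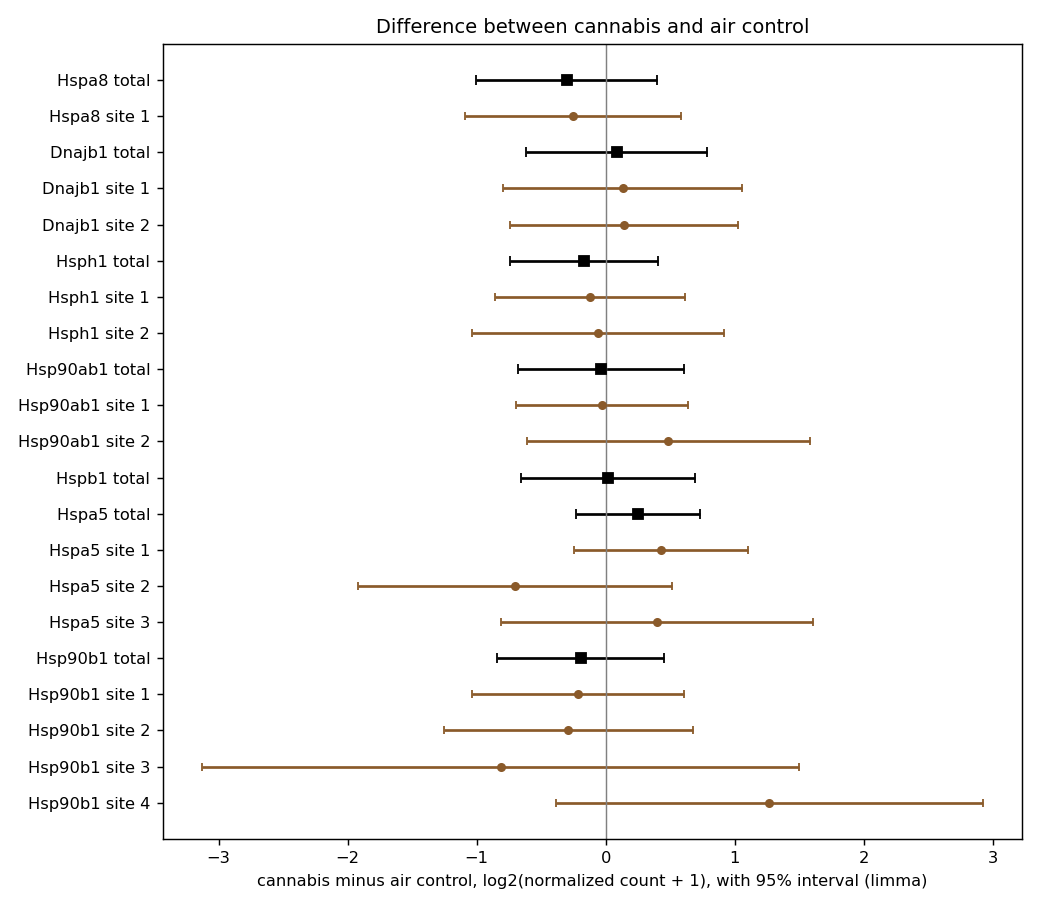
Log2 difference of cannabis-exposed rats minus air-treated controls, of normalized count + 1, with its 95% interval from limma, for the total of each chaperone (black squares) and for its sites with a mean of at least 10 normalized counts (brown circles). Every interval includes 0, and the widest are those of Hsp90b1 sites 3 and 4.

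The size of difference that this design could have called was set by the spread between rats. For P under 0.01, a member total would have needed a fold between 1.59 (Hspa5) and 1.97 (Hspa8) at its own standard error. The coefficient of variation over the 8 rats was from 21.1% for Hspa5 to 36.9% for Hsp90b1, and counting error alone would have given from 4.83% for Hsp90ab1 to 15.5% for Hspa8. A smaller difference would not have passed that threshold, and the tests do not show that the groups were alike. The exact permutation test, run on the linear scale for each of the 7, gave 0 values of P under 0.05. It was not run over all gene totals, so no share of them can be set beside this count.

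Levels are set side by side without dividing by length, since each read marks 1 transcript end. Of the 98356 sites, 34043 had no gene symbol, so a total can miss ends of its gene. Whether any of these sites belong to the members was not tested. The order by mean over the 8 libraries was Hsp90ab1 (442 normalized counts), Hsp90b1 (225), Hspa5 (172), Dnajb1 (109), Hsph1 (107), Hspb1 (45.9) and Hspa8 (42.7). Hsp90ab1 was above Hsp90b1, Hspa5 above Dnajb1, and Hsph1 above Hspb1 in 8 of 8 libraries. Among the other neighbours, Hsp90b1 was above Hspa5 in 5 libraries, Dnajb1 above Hsph1 in 6 and Hspb1 above Hspa8 in 4, so these orders did not hold beyond the spread. Hsph1 and Hspb1 were the single pair of neighbours whose ranges over the libraries did not overlap. With its copies joined, Hspa8 had a mean of 168 normalized counts, close to Hspa5.

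**Figure D3:**
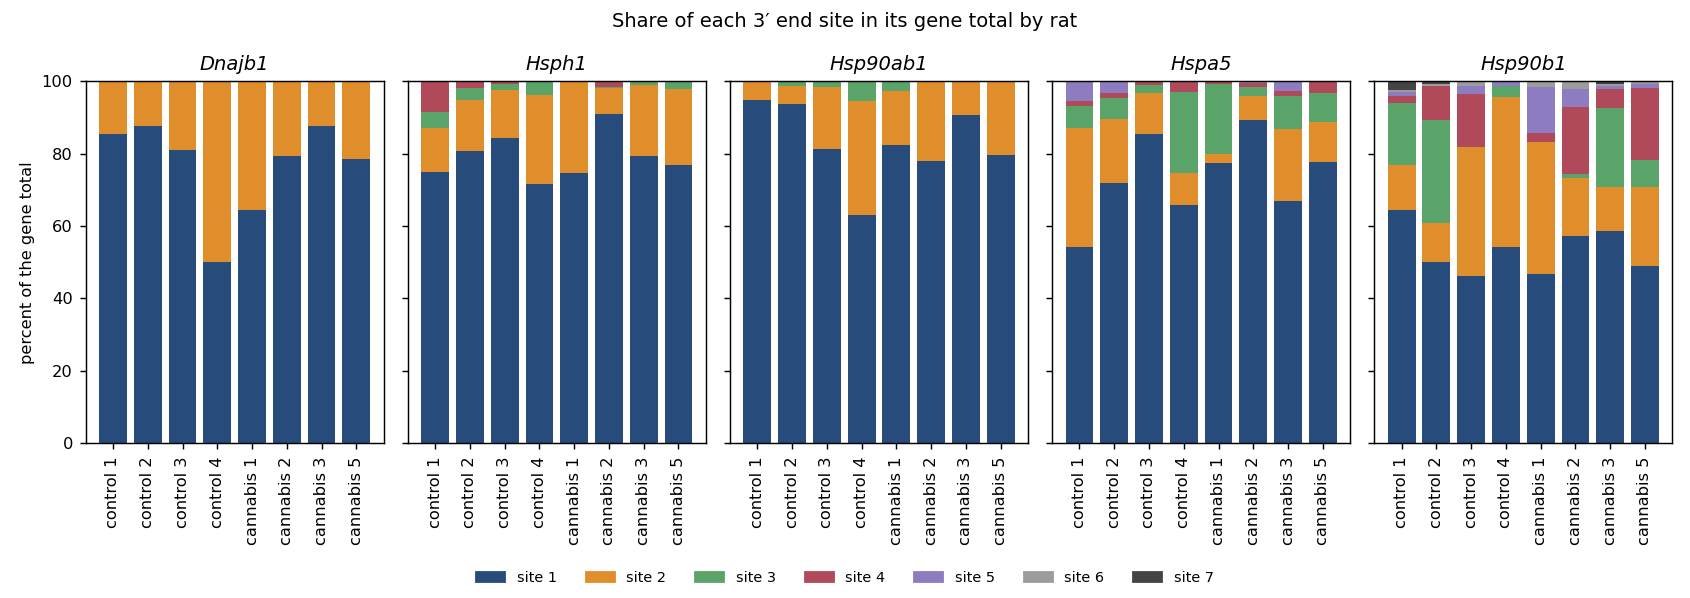
Share of each 3′ end site in the total of its gene, in percent, for the 5 chaperones with several well-read sites, with 1 bar per rat, and sites numbered from the highest mean level down. Site 2 takes 50% of Dnajb1 in control 4, and site 3 takes from 0% to 28.6% of Hsp90b1, with high and low bars in both groups.

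At the level of single sites, the 24 member sites were numbered within each gene from the highest mean level down, and their positions were not used here. Of these, 15 had a mean of at least 10 normalized counts and 9 had from 1.67 to 6.74. By limma 0 of the 24 sites had P under 0.01, where 0.381% of all 98356 sites did (0.123% higher and 0.258% lower), and 0 had adjusted P under 0.1, where 0.00102% did. At P under 0.05 there was 1, where 3.03% of all sites passed. By edgeR 2 member sites passed 0.05, where 2.91% of all sites did, and by DESeq2 0, where 1.86% did. The groups overlapped at each of the 24 sites, while they did not overlap at 2% of all sites. The site under 0.05 by limma was Hsph1 site 3, named after its values were seen, which had 20 reads in all and a log2 difference of -1.40 (limma P = 0.0377, adjusted P = 1.00, exact permutation P = 0.0571).

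Most members used 1 main site. Site 1 took a mean of 94.1% of the Hspa8 total over the 8 libraries, 82.9% of Hsp90ab1, 79.2% of Hsph1, 76.7% of Dnajb1 and 73.6% of Hspa5. Hsp90b1 was the most divided, with 7 sites and a mean share of 53.2% for its first. At these main sites the log2 differences were -0.25 for Hspa8, -0.03 for Hsp90ab1, -0.12 for Hsph1, 0.13 for Dnajb1, 0.43 for Hspa5 and -0.21 for Hsp90b1, and the lowest of their limma P values was 0.203, for Hspa5.

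The values of the main sites are given by rat. Hspa8 site 1 had 35.1, 55.1, 38.9 and 41.7 normalized counts in controls 1 to 4, and 18.6, 47.2, 39.4 and 43.8 in cannabis rats 1, 2, 3 and 5. Hsp90ab1 site 1 had 637, 321, 214 and 344 in controls, and 430, 221, 354 and 411 after cannabis, in the same order of rats. For both, as for their totals, the controls held the highest value, and the lowest was in cannabis 1 for Hspa8 and in control 3 for Hsp90ab1.

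Hsph1 site 1 had 109.7, 94.6, 68.5 and 75.5 normalized counts in controls 1 to 4, and 88.2, 118, 67.9 and 53.8 in cannabis rats 1, 2, 3 and 5. Dnajb1 site 1 had 129, 119.7, 77.2 and 25.8 in controls, and 55.9, 109.6, 110.2 and 66.8 after cannabis, in the same order. Cannabis 2 and cannabis 5 were the ends for Hsph1, and control 1 and control 4 were the ends for Dnajb1.

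Hspa5 site 1 had 92.1, 132, 117 and 87.4 normalized counts in controls 1 to 4, and 119, 221, 124 and 126 in cannabis rats 1, 2, 3 and 5. Hsp90b1 site 1 had 250.01, 83.8, 71.2 and 145 in controls, and 68.3, 106.3, 165 and 99.8 after cannabis, in the same order. At Hspa5 only control 2 lay above the lowest 3 cannabis-exposed rats, and control 4 was lowest, while at Hsp90b1 control 1 was far above the others.

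Several secondary sites spread over the rats more widely than the main site of their gene. Hsp90b1 site 3 had 66.5, 47.9, 0 and 7.94 normalized counts in controls 1 to 4, and 0, 1.99, 62.0 and 15.4 in cannabis rats 1, 2, 3 and 5. It was high in 3 rats drawn from both groups and had no read in control 3 and cannabis 1, where a count of 0 allows up to 2.01 and 3.73 normalized counts. Its coefficient of variation was 114%, where counting error alone gives 20.2%.

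Hspa5 site 2 had 56.3, 32.3, 15.4 and 11.9 normalized counts in controls 1 to 4, and 3.73, 16.6, 36.4 and 17.7 in cannabis rats 1, 2, 3 and 5. The 3 highest rats, control 1, cannabis 3 and control 2, were the same 3 as for Hsp90b1 site 3. The log2 difference was -0.70 for this site (exact permutation P = 0.486), with -0.13 without cannabis 1 and -1.12 without cannabis 3, and -0.81 for Hsp90b1 site 3 (P = 0.743).

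Other sites were highest in control 4, the library with the fewest reads. Hsp90ab1 site 2 had 35.1, 16.8, 45.0 and 171 normalized counts in controls 1 to 4, and 78.2, 62.4, 35.4 and 105 in cannabis rats 1, 2, 3 and 5. Hsp90b1 site 2 had 48.2, 17.96, 55.1 and 111 in controls 1 to 4, and 53.4, 29.9, 33.5 and 44.5 in cannabis rats 1, 2, 3 and 5. In each case control 4 was highest and control 2 lowest, so that the extremes both came from controls. The log2 difference was 0.49 for Hsp90ab1 site 2 (exact permutation P = 0.971), with 1.10 without control 4 and 0.01 without control 2, and -0.29 for Hsp90b1 site 2 (P = 0.514).

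The low secondary sites of Dnajb1, Hsph1 and Hspa5 come next. Dnajb1 site 2 had 21.9, 16.8, 18.1 and 25.8 normalized counts in controls 1 to 4, and 31.0, 28.6, 15.7 and 18.4 in cannabis rats 1, 2, 3 and 5. Hsph1 site 2 had 17.5, 16.8, 10.7 and 25.8 in controls, and 29.8, 9.30, 16.7 and 14.6 after cannabis, in the same order. Hspa5 site 3 had 10.2, 10.8, 3.36 and 29.8 in controls, and 29.8, 5.98, 16.7 and 13.1 after cannabis. At Hsph1 site 2 and Hspa5 site 3 the highest rats were cannabis 1 and control 4, and at Dnajb1 site 2 cannabis 1 was highest and control 4 came after cannabis 2, and these are the libraries that stood apart on the first principal component. Their log2 differences were 0.14, -0.06 and 0.40 in that order (exact permutation P = 0.543, 0.971 and 0.629).

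The highest site difference among the 15, in log2 terms, was that of Hsp90b1 site 4, at 1.27 (SE 0.80, 95% interval -0.39 to 2.93, limma P = 0.127, exact permutation P = 0.314). Its values were 7.31, 15.6, 22.8 and 0 normalized counts in controls 1 to 4, and 3.73, 34.5, 14.8 and 40.7 in cannabis rats 1, 2, 3 and 5. Cannabis 5 and cannabis 2 were highest, while cannabis 1 lay below 3 of the controls, and the 0 in control 4 allows up to 5.96 normalized counts. Its difference was 1.92 on the log2 scale without cannabis 1 and 0.30 without control 4, and 0.79 with a pseudocount of 5 in place of 1.

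**Figure D4:**
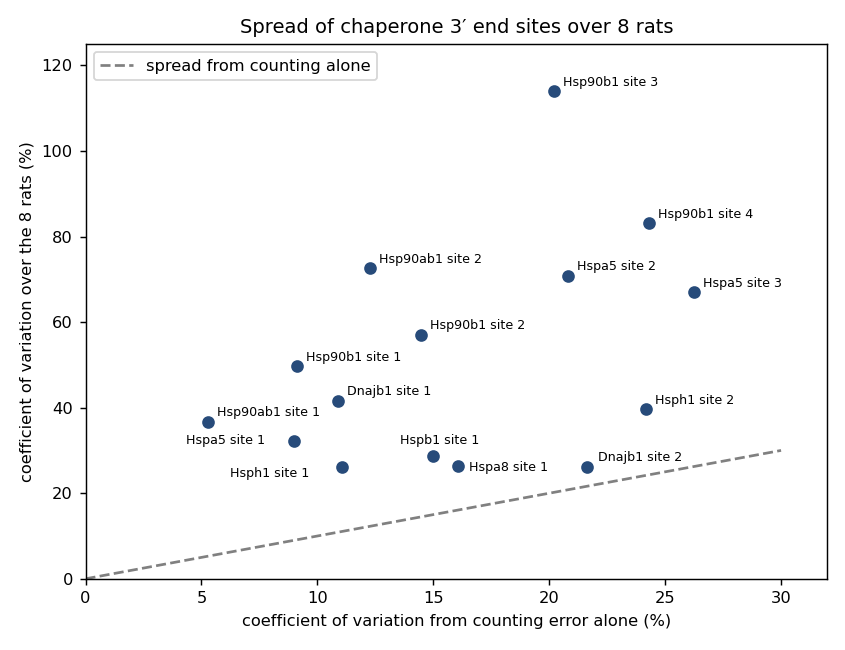
Coefficient of variation of the normalized count over the 8 rats, in percent, against the coefficient expected from counting error alone, for the 15 member sites with a mean of at least 10 normalized counts, with the dashed line where both are equal. All 15 points lie above the line, from Dnajb1 site 2 at 26.2% to Hsp90b1 site 3 at 114%.

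The choice between sites of a gene was compared as the share of the gene total. Of 14 member shares, 0 had P under 0.05 by exact two-sided permutation tests, where 1.72% of 14626 shares over all genes did, and the lowest was that of Hspa5 site 2 (exact P = 0.286, adjusted P = 1). The limma fit of shares also gave 0 of the 14 at P under 0.05, where 436 of the 14626 shares over all genes passed. Hspa5 site 2 took 33.0%, 17.6%, 11.2% and 8.96% of the total in controls 1 to 4, and 2.42%, 6.70%, 19.7% and 10.9% in cannabis rats 1, 2, 3 and 5, a mean difference of -7.79 percentage points. This difference was -2.68 points without control 1 and -11.0 points without cannabis 3. Dnajb1 site 2 took 14.5%, 12.3%, 19.0% and 50% in controls 1 to 4, and 35.7%, 20.7%, 12.5% and 21.6% in cannabis rats 1, 2, 3 and 5. Control 4 and cannabis 1, which stood apart in the whole table, had the highest shares of this Dnajb1 site, and the part of depth in it was not tested. Hsp90ab1 site 1 took from 63.1% in control 4 to 94.8% in control 1, with the 4 cannabis-exposed rats between 77.8% and 90.7%.

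**Figure D5:**
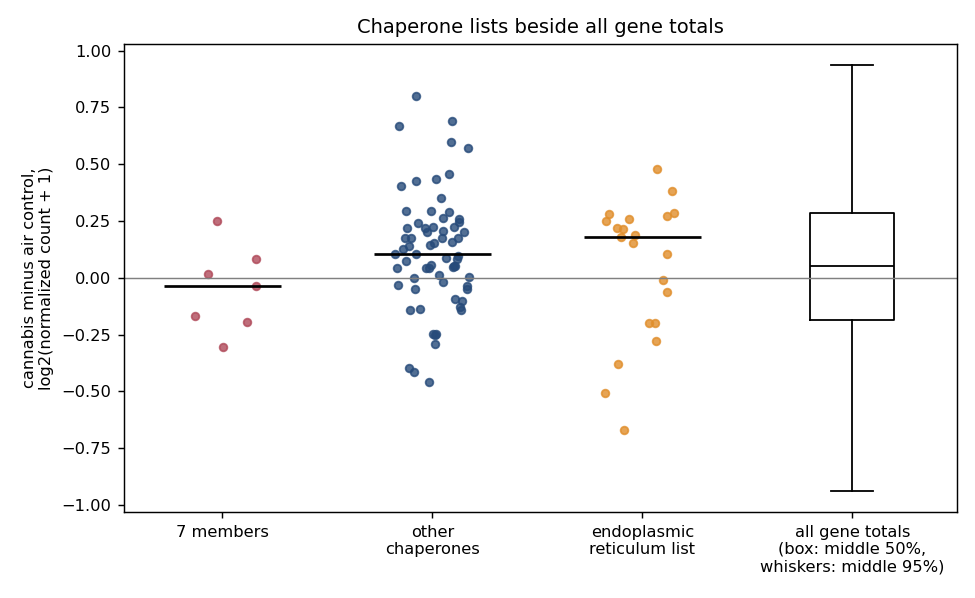
Log2 difference of cannabis-exposed rats minus air-treated controls, of normalized count + 1, for the 7 members, 67 other chaperones and 21 ER genes (1 point per gene, with a line at the median), beside the quartiles and middle 95% of all 18003 gene totals. The medians are -0.04, 0.11 and 0.18, and that of all genes is 0.05.

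The wider chaperone network was read from 2 further lists. Of a list of 70 other chaperones and co-chaperones, 67 were found (Bag2, Bag5 and Hspb3 were not). By limma 0 were higher and 0 were lower at P under 0.01, where 0.1% and 0.178% of all gene totals were, and 1 of the 67 had P under 0.05, where 2.41% of all gene totals did. By edgeR 0 passed 0.05, where 2.52% of all did. The median log2 difference of the list was 0.11, with 49 of 67 (73.1%) above 0, beside a median of 0.05 and 56.4% above 0 for all gene totals. Among gene totals with a mean of at least 10 normalized counts the median was 0.06, with 58.9% above 0. Without control 4 the median of all gene totals was -0.0062, and that of the list was not computed without it. The gene under 0.05 was Stip1, which encodes Hop, the adaptor that passes clients from Hsp70 to Hsp90.

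Stip1 had 127, 104, 177 and 75.5 normalized counts in controls 1 to 4, and 161, 191, 139 and 266 in cannabis rats 1, 2, 3 and 5. Cannabis 5 was highest and control 4 lowest, and control 3 lay above 2 of the cannabis-exposed rats. The log2 difference was 0.67 (SE 0.29, 95% interval 0.05 to 1.28, limma adjusted P = 0.999).

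By size of the log2 difference among genes with a mean of at least 10 normalized counts, the highest values on this list were those of Cct6a, a subunit of the cytosolic chaperonin (0.80), Stip1, and Dnaja2, a J-domain partner of Hsp70 (0.60). The lowest were those of Bag6, which guards membrane proteins before insertion (-0.46), Cdc37, which brings kinases to Hsp90 (-0.41), and Hspa12a, a distant Hsp70 relative (-0.29). Cct6a, Dnaja2 and Stip1 were each lowest in control 4, and limma gave adjusted P = 0.999 for all 6. Hspa1l, the Hsp70 gene next to Hspa1a in RefSeq, had a mean of 39.2 normalized counts and a log2 difference of 0.05 (limma adjusted P = 0.999). Whether reads of Hspa1a or Hspa1b were counted under Hspa1l could not be told.

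For the ER, all 21 genes of folding enzymes and of the unfolded protein response were found, and 3 of them are also on the chaperone list. By limma and by edgeR 0 had P under 0.05, where 2.41% and 2.52% of all gene totals did. The median log2 difference was 0.18, with 13 of 21 (61.9%) above 0, where 56.4% of all gene totals were. Of gene totals with a mean of at least 10 normalized counts, 58.9% were above 0. At the same minimum mean, Atf4, the transcription factor of the integrated stress response, had the highest log2 difference (0.48), followed by the disulfide isomerases Pdia6 (0.38) and Pdia3 (0.29). The stress sensors Ern1 and Atf6 had the lowest, at -0.51 and -0.38, with the ER chaperone Hyou1 at -0.28. The lowest adjusted P that limma gave for the ER genes named here was 0.999.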

How the data were processed

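Hypothalamic RNA of 4 air-treated and 4 cannabis-exposed rats was read by WTTS-Seq, with 1 library per rat and groups taken from the labels. The authors removed poor reads (FASTX Toolkit), cut the Ts at read starts, aligned against the Rnor_6.0 genome with TMAP, joined nearby ends into sites, of which each here holds at least 16 reads, and took gene symbols from Cuffcompare. Each deposited value is a signal, the site's reads after scaling by DESeq2 size factors, with 1 column per rat and none pooled. Whole reads were recovered by dividing each value by the smallest step of its library, and 100% of values came out whole within 0.01 reads. Sites with the same symbol were summed per gene.

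In R 4.3.3, limma 3.58.1 (lmFit, then eBayes with trend) compared the groups on log2(normalized count + 1), for sites and for gene totals, with no covariate, two-sided, with Benjamini-Hochberg adjustment over all sites or all gene totals. This scale understates changes of low sites. Thresholds were 0.01 for P and 0.1 for adjusted P. Site shares, and the linear normalized counts of member totals and member sites, had exact permutation tests over the 8 rats at 0.05. The fit and the exact test were tested on simulated data. Alternatives were edgeR 4.0.16, DESeq2 1.42.0, a pseudocount of 0.5 or 5, dropping means under 10, library totals as scale, no trend, a replicate block and each library left out. Figures were drawn with matplotlib 3.10.9, and tables were handled with pandas 2.3.3 and numpy 2.4.6 under Python 3.11.15.

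Every member found is named, each member site with a mean of at least 10 normalized counts is described, and the 3 highest and 3 lowest genes of each further list are named, with any at P under 0.01. The genes of like pattern are the 5 with the highest r, of which 1 is not reported here. The members and lists were chosen with earlier results of these data known. A planned sum of Hspa1a and Hspa1b gave no value, since neither symbol was found. Promoter letters are from RefSeq for GRCr8 and were not joined to site positions of Rnor_6.0. The labels do not say what the replicate numbers mean, and the main fit did not pair rats by them.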

Additional observations from a re-analysis of the deposited data

Results flagged for a closer look

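Of 72 groups of 4 rats tested for a value far from the other 3 (member totals, sites and site shares), 1 held such a value, where chance gives about 1 in 20. It was Hspa5 site 1 in cannabis-exposed rats, at 221 normalized counts in cannabis 2 against 119 to 126 in the other 3. This site, the main 3′ end of BiP, also carried the high Hspa5 total of that rat.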

How the results depend on the processing

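Across 42 results and 592 alternatives, no member total, member site or member share passed its threshold under any setting. These thresholds were P under 0.01 for fits of totals and sites, and 0.05 for exact tests and shares. Member sites at P under 0.05 numbered from 0 to 3 over the settings, where 3.03% of all sites passed in the main fit. Of the alternatives, 502 values kept their direction and their side of the threshold or, for counts, stayed within 1.5 times. A further 73 values changed sign, all of them of differences that had not passed the test, and 49 of these came from leaving out 1 library, most often control 4 (10), cannabis 1 (9), cannabis 2 (9) and control 1 (8). The cause was not tested. The member total with the lowest P was Hspa5, Hspa8 or Hsp90b1, according to the setting, and that P lay between 0.174 and 0.376. Depth also limits the sites, since 9 of 24 had from 17 to 47 reads in all, and counting intervals and floors cover counting error alone.

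Replicate numbers do not mark shared animals, and whether they mark shared handling is not stated. Same-numbered rats did not deviate together (r = -0.235, 0.0890 and -0.0699 over gene totals for numbers 1, 2 and 3). The highest r between a control and a cannabis-exposed rat was 0.489, for control 4 and cannabis 1. In a fit with a replicate block, numbers 4 and 5 each held 1 library, so control 4 and cannabis 5 did not bear on the difference. That fit thus rested on numbers 1, 2 and 3 and is not a test of pairing alone. With the replicate block limma gave 229 sites and 24 gene totals at P under 0.01, where the fit without it gave 375 and 50, and member values that changed sign were -0.13 for Dnajb1 total, -0.096 for Hspb1 total, -0.27 for Dnajb1 site 1, 0.049 for Hsp90b1 site 2, -0.10 for Hsp90b1 site 4, -0.096 for Hspb1 site 1 and 0.18 for Hsph1 site 2.

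Over all sites, 375 had P under 0.01 (121 higher, 254 lower in cannabis-exposed rats), 44 with a mean of at least 10, and 206 higher against 238 lower without trend. Leaving out 1 library gave from 227 to 617 sites, with 231 without control 1 (141 higher, 90 lower), 617 without control 3, 594 without cannabis 1 and 227 without cannabis 5. Gene totals gave 50 (18 higher, 32 lower), 29 with a mean of at least 10, 98 without trend, 76 by DESeq2 (12 higher, 64 lower), 54 by edgeR (12 higher, 42 lower), and from 30 to 90 with 1 library left out, the ends being without control 1 and without cannabis 1, with 84 without control 3 and 31 without cannabis 5. Site shares gave 251 at P under 0.05, 436 by limma and 436 with a mean of at least 5, and from 211 to 378 with 1 library left out, the last without control 3.

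By edgeR the values that changed sign were -0.061 for Dnajb1 total, -0.026 for Hspb1 total, -0.040 for Dnajb1 site 1 and 0.046 for Hsph1 site 2. By DESeq2 they were -0.061 for Dnajb1 total, -0.032 for Hspb1 total, -0.050 for Dnajb1 site 1 and 0.0034 for Hsph1 site 2. With library totals as scale they were -0.0038 for Hspb1 total and -0.0038 for Hspb1 site 1. With both control 4 and cannabis 1 left out, a setting chosen after seeing the data, they were -0.13 for Dnajb1 total, -0.21 for Hspb1 total, 0.030 for Hsp90b1 total, -0.19 for Dnajb1 site 1, 0.076 for Hsp90b1 site 1, 0.036 for Hspa8 site 1 and -0.21 for Hspb1 site 1.

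With 1 library left out, log2 differences that changed sign ranged from -0.37 to 0.39 for Dnajb1 site 1, -0.0075 to 0.30 for Dnajb1 site 2, -0.23 to 0.28 for Dnajb1 total, -0.27 to 0.26 for Hsp90ab1 site 1, -0.27 to 0.18 for Hsp90ab1 total, -0.47 to 0.13 for Hsp90b1 site 1, -0.75 to 0.11 for Hsp90b1 site 2 and -2.05 to 0.15 for Hsp90b1 site 3. Further ranges were -0.38 to 0.061 for Hsp90b1 total, -0.07 to 0.87 for Hspa5 site 3, -0.39 to 0.040 for Hspa8 site 1, -0.51 to 0.060 for Hspa8 with its pseudogene symbols, -0.19 to 0.19 for Hspb1 site 1, -0.19 to 0.19 for Hspb1 total, -0.32 to 0.058 for Hsph1 site 1 and -0.34 to 0.19 for Hsph1 site 2. Shares, in percentage points, ranged from -7.36 to 5.68 for Dnajb1 site 1, -5.68 to 7.36 for Dnajb1 site 2, -7.34 to 3.21 for Hsp90ab1 site 1, -1.29 to 7.54 for Hsp90ab1 site 2, -3.32 to 2.79 for Hsp90b1 site 1, -8.48 to 1.95 for Hsp90b1 site 2, -9.3 to 0.954 for Hsp90b1 site 3, -2.68 to 4.94 for Hspa5 site 3, -0.912 to 4.68 for Hsph1 site 1 and -0.155 to 5.88 for Hsph1 site 2. Among differences that kept their sign with 1 library left out, the log2 ranges were -0.43 to -0.019 for Hspa8 total, -0.31 to -0.0065 for Hsph1 total, 0.11 to 0.33 for Hspa5 total, 0.22 to 0.53 for Hspa5 site 1, -1.12 to -0.13 for Hspa5 site 2, 0.013 to 1.10 for Hsp90ab1 site 2 and 0.30 to 1.92 for Hsp90b1 site 4. Shares that kept their sign ranged, in percentage points, from 3.55 to 14.0 for Hspa5 site 1, -11.0 to -2.68 for Hspa5 site 2, 2.30 to 8.09 for Hsp90b1 site 4 and 1.36 to 4.53 for Hspa8 site 1.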
